A study of Rattus norvegicus with 9 samples.

Results

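Manganese-treated N27 cells were compared with untreated N27 cells by their methylated genomic DNA. N27 is a rat dopaminergic neural line. The comparison used 5 of the 9 scanner outputs of the series, 2 of Mn-treated cells (replicates 1 and 2) and 3 of control cells (replicates 1 to 3). The output labelled Mn replicate 3 was left out because it held the values of control replicate 3, which leaves 8 distinct outputs in the series. Of the 45220 spots on each array, 42877 belonged to 30367 probes for rat genes, all of which are described here. A further 757 blank spots, 604 dark corners and 153 negative controls, carry no designed rat target and show the spread without one.

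The labels call the treated cells Mn and the reference cells control, with no other agent in either group, and the replicates independent biological ones. The dose and length of exposure to Mn are not given in the sources used here beyond the dose being sublethal. The remaining group of the series, given MPP+, was used in 1 alternative fit. Its outputs also entered the checks of outputs against each other and against the authors' deposited table. N27 is a single established line, and the arrays measure DNA, so its dopaminergic identity could not be checked against markers.

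Manganese is an essential cofactor, for example of the mitochondrial superoxide dismutase Sod2, and in excess it damages neurons of the basal ganglia. Cells take it up with iron through the transporter Slc11a2 and the transferrin receptor, and through the zinc transporter family members Slc39a8 and Slc39a14, and release it through Slc30a10. Methyl groups on cytosines of CpG dinucleotides are set by the Dnmt enzymes and oxidised by the Tet enzymes. In this assay denatured genomic DNA in fragments of 1.5 to 2 kb bound an array of gene expression probes, and an antibody against 5-methylcytosine and a Cy3-labelled second antibody stained the methylated cytosines. A spot made bright by this staining holds more methylated cytosine, and more bound DNA and denser methylation cannot be told apart. Blank spots were bright at times as well, so brightness by itself does not show methylated DNA of a gene. The staining can lie anywhere on a bound fragment, and no probe sequence or genome position is given here.

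Several outputs shared values or positions. The output labelled Mn replicate 3 equalled that of control replicate 3 in spot median at 45220 of 45220 spots, and the next closest pair of outputs at 0.677% of spots. The control replicate 3 column of the authors' deposited table of signal to noise ratios matched this shared output at 99.9% of its 777 values. The Mn replicate 3 column of that table matched none of the given outputs at more than 4.61% of its 932 values. The shared output carries array place 4 on the slide, as do all control outputs, while Mn replicates 1 and 2 carry place 3. Place and treatment thus cannot be told apart. Control replicate 3 also came from a 2-channel scan, and the other 4 outputs from 1-channel scans.

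Control replicates 2 and 3 agreed by position on the scan and hardly by probe name. Each spot of control replicate 2 was paired with the nearest spot of control replicate 3 by the X and Y coordinates in the outputs. Among the 5151 pairs less than 10 units apart, the Spearman correlation of the spot medians was 0.782, although 0.854% of these pairs carried the same probe name. It was 0.618 at 10 to 20 units, 0.469 at 20 to 30 units and 0.33 at 30 to 50 units. Spots of the same probe lay a median of 153.6 units apart in these outputs, and their correlation was 0.165 (n = 45220). Scaled to the local background, the correlation of the closest pairs was 0.607, and that of spots of the same probe 0.00331.

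**Figure D1:**
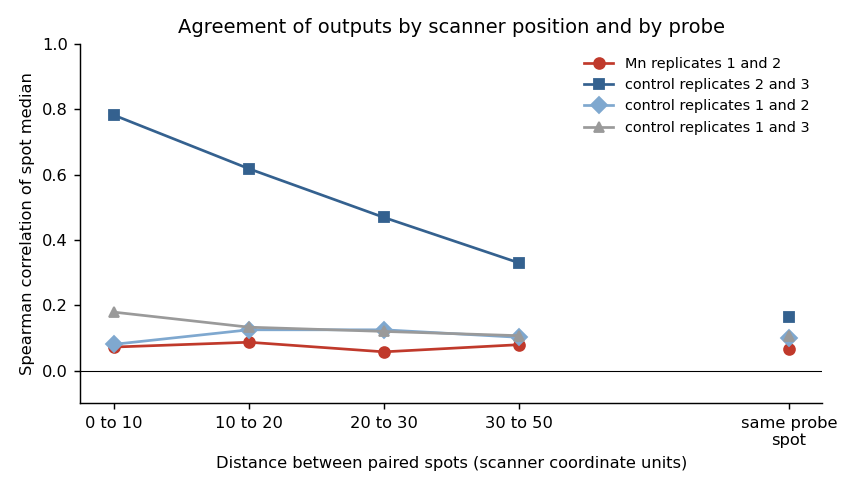
Spearman correlation of the spot median between outputs (vertical axis), for spots paired by distance on the scan (horizontal axis, scanner coordinate units) and for spots of the same probe (right). Control replicates 2 and 3 reach 0.782 at less than 10 units, while Mn replicates 1 and 2 and the other control pairs stay under 0.2 at each distance.

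The bright spots showed the same. Of 203 spots of control replicate 2 that were over 3 times their background and had a partner within 10 units, 85 (41.9%) had a partner over 3 times background on control replicate 3, against 3.07% of all 5151 partners. For Mn replicates 1 and 2 this held for 1 of 95 such spots (1.05%). Control replicate 1 shared 2 of 61 with control replicate 2 and 1 of 61 with control replicate 3. The Spearman correlation within 10 units was 0.0722 for the Mn pair, 0.0806 for control replicates 1 and 2 and 0.179 for control replicates 1 and 3. Whether these 2 outputs come from separate arrays was not tested. If they do not, probe names of at least 1 of them belong to other spots, control holds 2 arrays, and averaging the 2 by probe name does not mend it. The gene calls and both whole-array measures below therefore also have a value without each of these outputs, and with the 2 averaged into 1 sample, an alternative chosen after seeing the data. The other results have no averaged value.

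The methylation signal of whole arrays lay close to the local background in both groups. The spot median averaged 176.5 ± 10.6 over the 2 Mn arrays and 180.0 ± 23.4 over the 3 control arrays (± SD). The background median averaged 163.5 ± 3.54 on the Mn arrays and 167.3 ± 17.0 on the control arrays. The median log2 ratio of spot to background was 0.143 and 0.0671 on the Mn arrays, against 0.142, 0.0916 and 0.0589 on the control arrays. The groups overlapped, and the Mn mean was 0.00775 above the control mean (exact permutation test over arrays, two-sided, p = 0.8). With 2 against 3 arrays this test cannot go below 0.2. The difference was -0.0116 without control replicate 3 and -0.0304 without Mn replicate 1, and it was 0.00481 without control replicate 2, 0.03 without control replicate 1 and 0.0459 without Mn replicate 2. With control replicates 2 and 3 as 1 sample it was -0.00337.

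Few gene spots stood out from background, and blank spots did so about as often on the Mn arrays and less often on the control arrays. A spot was counted as above background where its median exceeded the local background median by over 2 SDs of the background. This held for 4.72% and 3.48% of gene spots on the Mn arrays, against 4.32%, 3.69% and 1.79% on the control arrays. The means, 4.10% ± 0.875 in Mn and 3.26% ± 1.32 in control, differed by 0.835 percentage points (exact permutation test, two-sided, p = 0.6), and the groups overlapped. Single arrays set this difference, which was 0.096 points without control replicate 3, 0.216 without Mn replicate 1, 1.05 without control replicate 2, 1.36 without control replicate 1 and 1.45 without Mn replicate 2, and 0.571 with control replicates 2 and 3 as 1 sample. Among blank spots the share was 4.49% and 3.83% on the Mn arrays, against 3.30%, 1.85% and 1.45% on the control arrays. The Mn arrays thus had the higher shares of bright blank spots, and on Mn replicate 2 the blank share was above the gene share. The 95% Wilson intervals of the gene and blank shares overlapped on both Mn arrays and on control replicates 1 and 3, and not on control replicate 2. With spots pooled over the control arrays they ran from 3.17% to 3.36% for gene and 1.67% to 2.89% for blank spots, without overlap. Pooled over the Mn arrays they overlapped, at 3.97% to 4.23% and 3.27% to 5.29%. Pooling counts spots and not arrays.

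**Figure D2:**
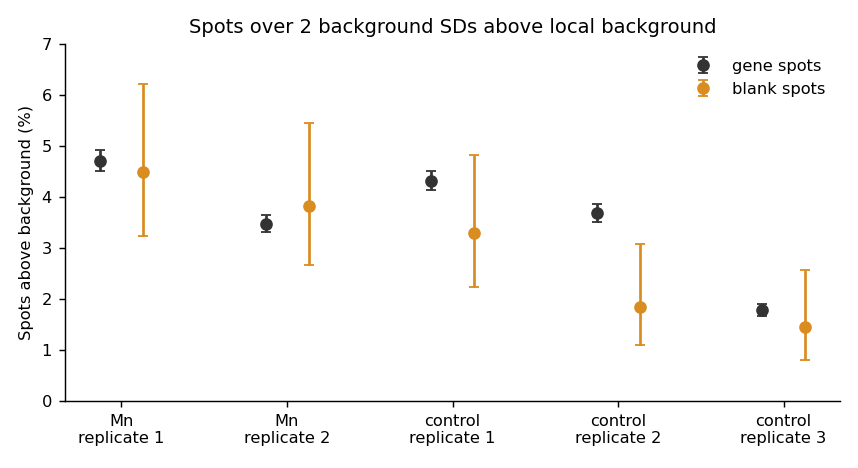
Share of spots above background by over 2 background SDs (%), for the 42877 gene spots and the 757 blank spots of each array. Error bars are 95% Wilson intervals, which cover counting error only. Gene and blank intervals overlap on all arrays but control replicate 2.

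Probes did not keep their brightness from one array to another. Across the 28977 probes with 1 spot, the Pearson correlation of log2 normalized signal was 0.013 between the Mn arrays. It was 0.000, 0.007 and 0.067 for the 3 control pairs, the highest being replicates 2 and 3, and -0.009 to 0.018 for pairs across the groups. Pairs of Mn arrays were thus no more alike than an Mn and a control array, as a description across probes. A gene probe above background on Mn replicate 1 was also above it on Mn replicate 2 in 3.77% of 1405 cases, while 3.38% of all probes were above background on Mn replicate 2. Both Mn arrays had 53 probes above background (0.175% of 30367), and at least 2 control arrays had 103 (0.339%). In all, 4924 probes (16.2%) were above background on at least 1 of the 5 arrays, 25443 on none, 4545 on 1, 368 on 2, 11 on 3, and 0 on 4 or 5.

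The 1390 probes spotted 10 times give the error within an array. The SD between spots of one such probe was 0.554 on each of the Mn arrays, against 0.533 to 0.558 on the control arrays, on the log2 scale. Averaging 10 spots with that spread would by itself give means with an SD of 0.175 on both Mn arrays, and the measured SD of the means was 0.176 and 0.179. On the control arrays the same pair of values was 0.176 and 0.176, 0.169 and 0.169, and 0.174 and 0.172. In both groups the means of different probes were therefore spread about as widely as means of 10 repeat spots would be.

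Set against blank spots, the differences between Mn and control covered nearly the same range. The Mn mean minus the control mean had an SD of 0.505 log2 over 1-spot gene probes and of 0.429 over blank spots, a ratio of 1.18. The central 95% of the differences ran from -0.93 to 1.02 for gene probes and from -0.79 to 1.01 for blank spots. Of the 28977 gene probes, 2.58% lay above the upper limit of the blank range and 3.59% below the lower limit, where 2.5% on each side of the blank spots lie by construction. The extremes were wider for gene probes, -4.56 to 4.51, than for the far fewer blank spots, -2.47 to 2.13. The 604 dark corners spanned that blank range, and the 153 negative controls ran from -1.31 to 1.97. Their SDs were 0.440 and 0.383. Blank spots beyond -1.31 or 1.97 were thus dark corners alone, which bears on the genes set against the blank range below. Probes with 10 spots had an SD of 0.159.

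**Figure D3:**
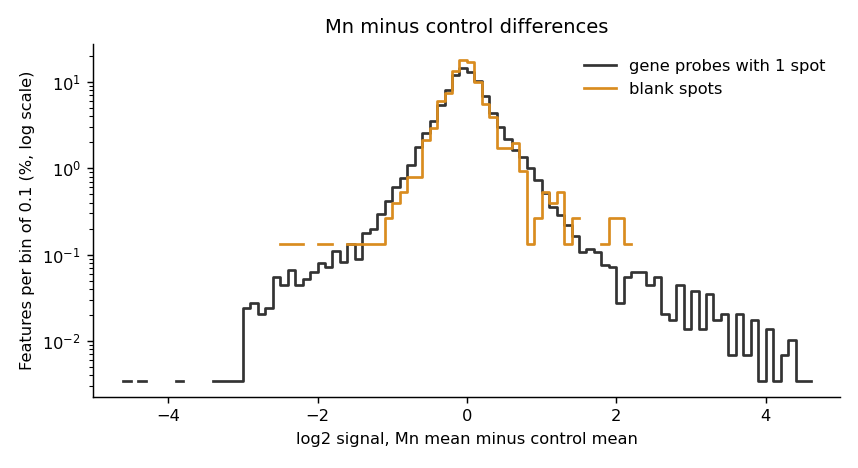
Share of features per bin of 0.1 (%, log scale) against the log2 difference of Mn mean minus control mean, for 28977 gene probes with 1 spot and 757 blank spots. The curves overlap over the centre, with SDs of 0.505 for gene probes and 0.429 for blank spots, and gene probes alone reach beyond -2.47 and 2.13.

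No gene passed the test of Mn against control. A probe was tested where it was above background on at least 2 of the 5 arrays, which held for 379 probes, and limma's moderated test with Benjamini-Hochberg adjustment at 0.05 called 0 of them (0%). The smallest adjusted p was 0.687. At an unadjusted limma p under 0.05 there were 22 probes (5.80%), 19 higher in Mn (5.01%) and 3 lower (0.792%). Fitted over all 30367 gene probes, 0 were called (0%), and 680 probes higher in Mn (2.24%) and 230 lower (0.757%) had an unadjusted limma p under 0.05. In a fit with the blank spots, this held for 912 of the 28977 1-spot gene probes (3.15%) and 14 of 757 blank spots (1.85%), and in the fit of all gene probes for 4 of the 1390 10-spot probes (0.288%). Neither split into higher and lower was tested or set against blank spots, and the groups were unequal, with 2 Mn and 3 control arrays. The typical standard error of a tested probe was 0.889 log2. At that error a log2 difference of 5.96 would have been needed for the smallest p to pass. With control replicates 2 and 3 as 1 sample, 0 were called and the smallest limma adjusted p was 0.737. Without control replicate 2 it was 0.326 and without control replicate 3 it was 0.567, again with 0 called.

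The values of the 2 Mn arrays and the 3 control arrays did not overlap in 1587 of the 15501 genes with a symbol with Mn higher (10.2%) and in 1586 with Mn lower (10.2%). Among blank spots the shares were 8.45% higher and 9.38% lower. Among the 379 tested probes they were 13.5% higher and 6.33% lower. The filter bears on these last shares, since a probe had to be bright on 2 arrays. A probe bright on both Mn arrays alone, or on 2 control arrays alone, was therefore likely to differ. It was not bound to, as brightness is set against each spot's own background. The olfactory receptor gene Or10k2, bright on 2 control arrays alone, had 9.475 on Mn replicate 2 against 9.021 on control replicate 1.

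The 12 genes with a higher mean in Mn and the smallest p are given as values, as none passed. Each was measured by 1 spot, and limma's adjusted p was 0.687 for all 12. Of these genes 10 were above background on both Mn arrays and on no control array, which largely fixed their direction. Zfp512b, a zinc finger protein gene, had log2 normalized signals of 11.04 and 9.72 in Mn, against 7.18, 6.92 and 7.20 in control. The spot stood at 10.4 and 5.06 times its background in Mn and at 0.95 to 1.38 times in control, so both Mn arrays were above all control arrays. The difference was 3.28 ± 0.78 (SE), or 9.51-fold by a rule for genes above background on no array of the dimmer group. For each dim array the gene's own value or, where higher, the faintest value that counted as above background there stands in. The brighter mean is divided by the average of these. This fold is no lower bound, as a spot can exceed that faintest value and still not count as above its own background.

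Cldn18, a claudin of tight junctions, had 9.69 and 9.31 in Mn, against 7.32, 6.90 and 7.03 in control, on the log2 scale. Its Mn values were close together, at 5.26 and 5 times background. The difference was 2.42 ± 0.73 (SE), or 5.21-fold by the rule given for Zfp512b. B3gat1, the glucuronyltransferase that makes the HNK-1 carbohydrate of neural cells, had 8.84 and 9.91 in Mn, against 6.89, 7.06 and 6.92 in control. Atp2b2, a calcium pump of the plasma membrane, had 8.54 and 11.07 in Mn, against 6.78, 7.01 and 6.97 in control. Clic2, an intracellular chloride channel protein, had 8.90 and 9.41 in Mn, against 6.97, 6.93 and 7.05 in control. These 4 genes entered the test only through the Mn arrays, as no control array was above background, so the filter largely fixed their direction. Without Mn replicate 2 the difference of Atp2b2 was 1.62, against 2.89 with both Mn arrays.

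Mthfd2 and Krtap16-5 had the widest differences of the 12, and each owed them to 1 array. Mthfd2, a mitochondrial enzyme of folate metabolism, had 8.10 and 14.14 in Mn, against 6.72, 7.01 and 6.79 in control. Its difference was 4.28 ± 1.54 (SE) with both Mn arrays and 1.27 without Mn replicate 2. Krtap16-5, a keratin-associated protein of hair, had 8.18 and 15.20 in Mn, against 7.32, 7.60 and 6.90 in control. Its difference was 4.41 ± 1.74 (SE), and 0.90 without Mn replicate 2. On Mn replicate 2 the Krtap16-5 spot was 45.0 times its background and on Mn replicate 1 it was 3.03 times.

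Vxn, Ik and Klhdc9 were likewise above background on both Mn arrays and on no control array, with differences of 2.31, 2.01 and 1.91. Ik is a protein of the spliceosome. Without Mn replicate 2 the difference of Vxn was 1.52. Ik and Klhdc9 lay within the range of blank spots, of which 0.396% and 0.661% had a difference as large. Snx29, a sorting nexin, had 8.92 and 11.35 in Mn, against 6.82, 8.64 and 6.96 in control, and was above background on control replicate 2 as well. Its difference of 2.66 was 1.45 without Mn replicate 2. Fam241b had 9.62 and 10.29 in Mn, against 6.94, 6.93 and 8.93 in control. It was above background on Mn replicate 1 and control replicate 3, and on Mn replicate 2 a high background SD kept it below the limit.

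Of the 12 genes with a lower mean in Mn and the smallest p, all were above background on 2 control arrays and on neither Mn array. The filter thus largely fixed their direction. Their adjusted limma p was 0.687 as well. The arrays concerned were control replicates 2 and 3, which share positions, for 3 genes, replicates 1 and 2 for 4 genes and replicates 1 and 3 for 5. Prss44, a serine protease gene of the testis in mouse, had log2 signals of 7.10 and 6.87 in Mn, against 10.96, 8.36 and 11.73 in control. The spot of control replicate 1 was not above background, with a background SD of 4954, so the signal that counted lay on control replicates 2 and 3. The difference of Prss44 was -3.36 ± 1.07 (SE). Control was 9.13-fold higher by the rule given for Zfp512b, which is no lower bound and here also takes in control replicate 1.

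H2bu1, a histone H2B gene, had 6.71 and 6.73 in Mn, against 8.71, 9.66 and 8.73 in control. Its spot was at 0.696 and 0.812 times background in Mn, against 3.92, 3.89 and 2.45 times in control, so the groups lay apart on either scale. The difference was -2.31 ± 0.76 (SE), within the range of blank spots, of which 0.264% had one as large. Control was 3.85-fold higher by the rule given for Zfp512b. This takes in control replicate 3, which was not above background. The difference ran from -2.54 to -1.98 when each array was left out, in a gene picked by its small p. Ptgir, the prostacyclin receptor, had 7.17 and 8.07 in Mn, against 9.26, 10.17 and 9.09 in control, a difference of -1.88 ± 0.79 (SE). Of the blank spots 0.528% had a difference as large.

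Psmd3, a subunit of the regulatory particle of the proteasome, had 6.94 and 7.25 in Mn, against 7.56, 9.96 and 9.92 in control. Of the blank spots 0.396% had a difference as large as its -2.05. Kcnh3, a potassium channel gene of the brain, had 7.02 and 6.89 in Mn, against 6.79, 11.46 and 10.03 in control. In both genes the signal lay on control replicates 2 and 3, and in Kcnh3 control replicate 1 was below the Mn arrays. Uqcc3, an assembly factor of mitochondrial complex III, had 6.91 and 7.13 in Mn, against 10.07, 6.67 and 13.13 in control. Its difference of -2.93 turned to 0.69 when the output deposited under both labels was counted as Mn, and was -1.30 without control replicate 3 and -4.53 without control replicate 2.

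The other 6 genes lower in Mn were Tll1, B3gnt3, Nacc1, Tfap2d, Slc14a2 and Adgrl3, with differences between -2.03 and -1.53. All lay within the range of blank spots, of which 0.396% to 0.66% had a difference as large. Tll1 is a metalloprotease of the extracellular matrix, B3gnt3 a glycosyltransferase, Nacc1 and Tfap2d regulators of transcription, Slc14a2 a urea transporter and Adgrl3 an adhesion receptor of neurons. In 5 of these 6 the groups did not overlap, which the filter and the choice by small p both favour. Mn was lower without overlap in 6.33% of all tested probes and 9.38% of blank spots. In Nacc1 control replicate 2, at 6.98, lay between the Mn values of 6.73 and 7.18.

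**Figure D4:**
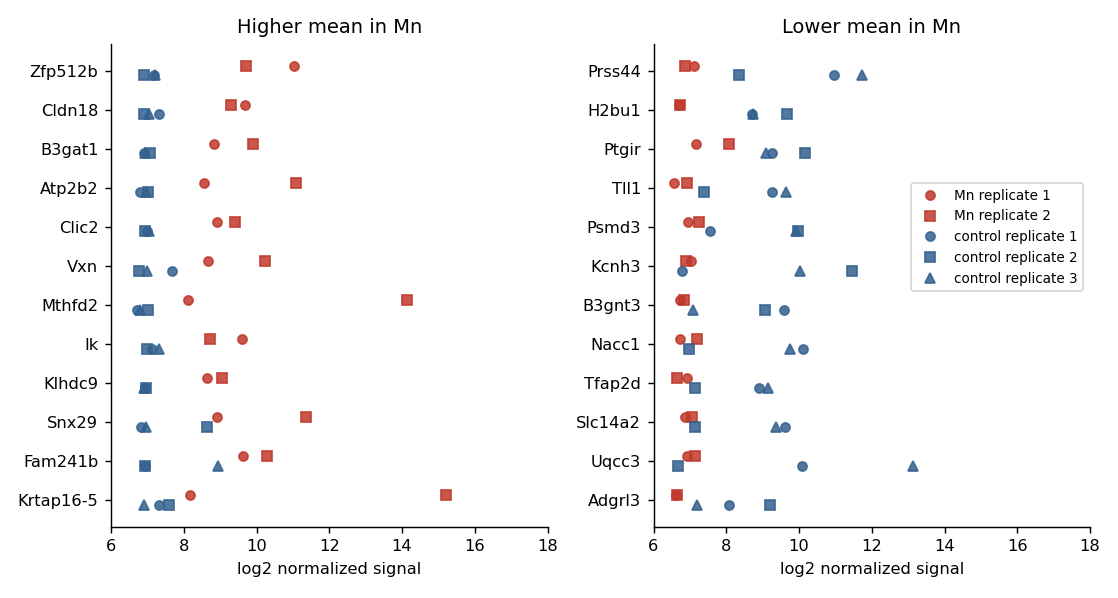
log2 normalized signal (horizontal axis) of the 12 genes of smallest p with a higher mean in Mn (left) and the 12 with a lower mean in Mn (right), with 1 point per array, Mn in red and control in blue. Mthfd2 and Krtap16-5 reach 14.14 and 15.20 on Mn replicate 2 alone, and each gene on the right is above background on 2 control arrays.

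H2bu1 and Krtap16-5 belong to families of short genes, so that fragments of 1.5 to 2 kb that hold a transcribed probe can also hold the promoter. Their promoters are therefore shown, from 250 bases before to 50 bases after the gene start, from RefSeq on GRCr8, 5′ to 3′ on the gene's strand, with CpG dinucleotides in capitals. H2bu1 lies on the minus strand with its promoter at chr10:44233016-44233315, and Krtap16-5 on the minus strand at chr11:41735965-41736264.
H2bu1: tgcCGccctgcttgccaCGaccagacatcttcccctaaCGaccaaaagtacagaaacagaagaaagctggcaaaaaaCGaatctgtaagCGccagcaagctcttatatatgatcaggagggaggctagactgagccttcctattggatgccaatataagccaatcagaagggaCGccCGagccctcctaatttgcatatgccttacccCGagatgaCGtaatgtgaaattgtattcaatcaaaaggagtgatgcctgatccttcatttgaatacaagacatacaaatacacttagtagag
Krtap16-5: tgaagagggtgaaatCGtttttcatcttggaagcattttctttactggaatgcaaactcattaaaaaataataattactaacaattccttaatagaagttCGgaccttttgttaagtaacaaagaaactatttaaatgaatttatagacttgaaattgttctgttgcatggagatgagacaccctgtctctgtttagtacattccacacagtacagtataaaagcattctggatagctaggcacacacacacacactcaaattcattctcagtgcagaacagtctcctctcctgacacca

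The motif counted was CG, which reads the same on both strands. The promoter of H2bu1 holds 9 and that of Krtap16-5 holds 2, while all 33469 rat promoters of this length in the table have a median of 7 and 94.5% hold at least 1. Krtap16-5, with the widest difference of the 24 genes above, thus has fewer CpG than the median promoter, and 86.4% of promoters have as many or more. Promoters were matched for 8 of the 12 genes higher in Mn, with a median of 22 CpG and a range of 2 to 41, and for 10 of the 12 lower in Mn, with a median of 10 and a range of 5 to 28. Over 15065 probes with a promoter, the Spearman correlation of a gene's signal with its promoter's CpG count was 0.0011 and 0.012 on the Mn arrays and between 0.0054 and 0.013 on the control arrays. Probes of these genes need not lie near the promoter.

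The transporters of manganese and their relatives that were looked up by name gave no signal above background on any array. Slc11a2, Slc39a14, Slc39a8 and Slc30a10, the transporters named above, were measured by 6 probes with differences from -0.53 to 0.60. The exporter of iron Slc40a1 (0.20 and -0.13), the transferrin receptor Tfrc (-0.24 and -0.71) and the metallothioneins Mt1 (0.09) and Mt2A (0.31 and -0.06) were also below the limit throughout. The Mt2A probe at 0.31 has 10 spots, which were averaged before the limit was applied. Of the 1390 probes with 10 spots, 1320 were above background on no array, against 25443 of all 30367 gene probes. Probes of one gene went in opposite directions: the 2 probes of Slc11a2 had -0.53 and 0.60, with values of 6.75 and 6.91 in Mn against 7.40, 7.64 and 7.05 in control for one, and 6.69 and 8.06 in Mn against 6.73, 6.78 and 6.80 in control for the other. The second rested on Mn replicate 2. The 2 probes of Ddc, the decarboxylase that makes dopamine, had 0.29 and -0.34.

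Of the 29 genes of metal transport, dopamine, Parkinson disease, oxidative stress and DNA methylation that were looked up by name, 27 had a probe and 5 were above background, each on 1 array. Atp13a2, a lysosomal transporter gene of Parkinson disease that protects yeast and cells from manganese, had 9.51 and 7.11 in Mn, against 6.90, 6.65 and 6.98 in control. Its spot was above background on Mn replicate 1 alone, and 0.925% of blank spots had a difference as large as its 1.46. Gclc, which makes the first step of glutathione synthesis, had 7.15 and 9.01 in Mn, against 6.86, 6.90 and 7.09 in control, with its signal on Mn replicate 2 and 1.85% of blank spots as far out. Both genes had the Mn arrays above the control arrays, as did 10.2% of all genes with a symbol.

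The dopamine transporter gene Slc6a3 had 6.84 and 7.05 in Mn, against 6.83, 7.97 and 7.09 in control. Sod2, the manganese superoxide dismutase, had 7.83 and 7.04 in Mn, against 7.55, 6.98 and 7.01 in control, and was above background on Mn replicate 1. In both genes the groups overlapped. Th, which starts dopamine synthesis, had 7.16 and 6.99 in Mn, against 7.10, 6.72 and 7.32 in control, a difference of 0.03. The methyltransferase genes Dnmt1 (-0.17) and Dnmt3a (-0.35), Tet3 (-0.33) and the methyl-CpG binding gene Mbd2 (0.08, a 10-spot probe) had no array above background. Tet1 and Tet2 had no probe.

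Gene lists drawn up by function, with 1 probe per gene, had no member that passed and medians near that of all genes. Over the 15501 genes with a symbol the median difference was -0.02, 7327 had a higher mean in Mn, and 18.1% were above background on at least 1 array. Of 43 genes that handle manganese, iron or zinc, 5 were above background on any array (11.6%), 19 had a higher mean in Mn, and the median was -0.06, or 0.0018 without control replicate 3. Their groups did not overlap in 4 genes with Mn higher and 5 with Mn lower, or 9 of 43 in all, where each direction takes 10.2% of all genes. The 20 dopamine genes had a median of -0.17, with 7 higher in Mn, and the groups did not overlap in 4 genes, all lower in Mn. That median was -0.12 without control replicate 3 and -0.06 with all probes of each gene.

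Of 36 antioxidant and glutathione genes 12 had a higher mean in Mn (median -0.10, and 0.29 over the 6 probes above background on any array), and of 19 genes of DNA methylation 8 did (median -0.07, and 0.04 without control replicate 3). The 40 genes of mitochondrial complex I, the enzyme that many dopaminergic toxicants act on, had 23 higher in Mn (median 0.03). Their groups did not overlap in 5 genes with Mn higher and 1 with Mn lower, against 10.2% of all genes in each direction. Of the 13 Parkinson disease genes 8 were higher in Mn (median 0.03, and 0.12 without control replicate 3). The groups did not overlap in 4 of the 13, all higher in Mn, against the same 10.2% of all genes. No list was tested as a set. Among 1149 olfactory receptor genes, 532 were higher in Mn, against 7327 of all 15501 genes with a symbol, and the median was -0.03. The 21 markers of glial and immune cells had a median of 0.07, and of -0.01 without control replicate 3. The order of the lists thus depended on 1 array. In all, 9 of the 23 medians were above 0, and 12 without control replicate 3.

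**Figure D5:**
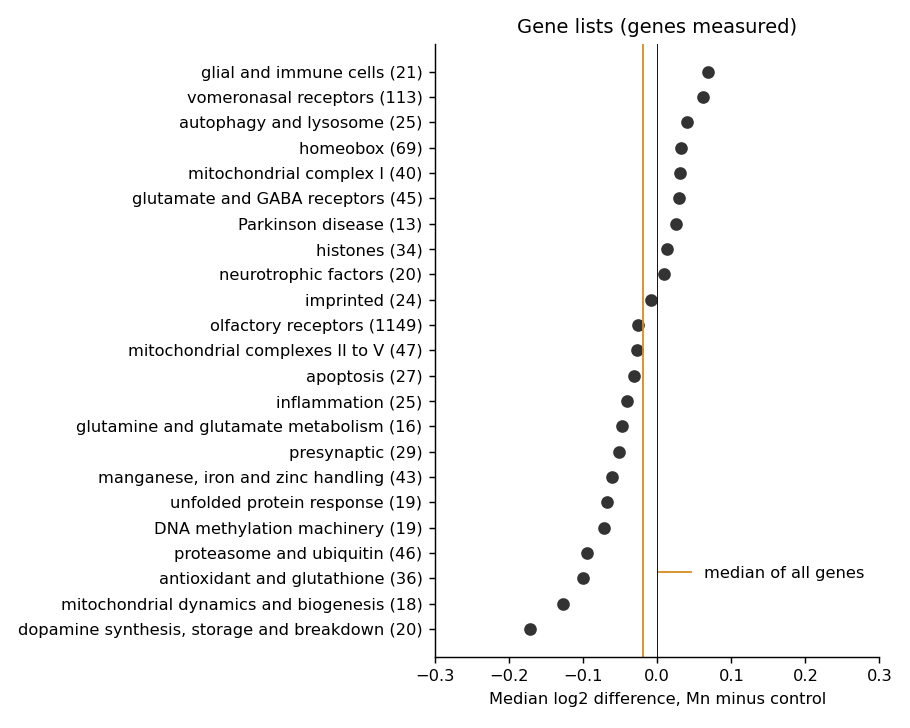
Median log2 difference, Mn minus control, of each of 23 gene lists, with the number of genes measured in brackets. With all 5 arrays the medians run from -0.17 for the dopamine genes to 0.07 for glial and immune markers, around the median of all genes with a symbol, -0.02 (orange line), and without control replicate 3 these 2 lists stand at -0.12 and -0.01.

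List members that were above background on both Mn arrays or on at least 2 control arrays numbered 10, of which H2bu1 and Psmd3 are described above. The olfactory receptor genes Or4c31c and Or4f47 were above background on both Mn arrays, with differences of 1.33 and 1.22. That of Or4f47 was 0.68 without Mn replicate 2 and 1.79 without Mn replicate 1. Rela, a subunit of the transcription factor NF-kappa-B, had 7.08 and 7.43 in Mn, against 6.75, 9.94 and 10.18 in control. The olfactory receptor gene Or8k31 had 6.81 and 7.03 in Mn, against 6.76, 9.26 and 9.72 in control. Both owed their control mean to replicates 2 and 3, as Psmd3 and Kcnh3 did, and control replicate 1 was below both Mn arrays. Or51a25 (-0.99), Or10k2 (-0.52), the GABA receptor subunit Gabrd (-0.39) and the vomeronasal receptor Vom2r78 (-0.19) were above background on 2 control arrays.

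The authors' deposited table lists signal to noise ratios of spot median over background SD for 932 probes in Mn and 777 in control. Both lists held 403 probes, 43.2% of the Mn list and 51.9% of the control list. Its Mn replicate 3 column, whose array is not among the outputs analysed here, gave correlations on the log2 scale of -0.000772 with replicate 1 and 0.00268 with replicate 2, across the probes of the table. Of the 12 genes higher in Mn, 4 were listed for Mn and none of these for control. In the authors' deposited table, Zfp512b had 11.09, 4.15 and 4.21 in Mn replicates 1 to 3 and Cldn18 had 6.59, 6.51 and 2.10. There Snx29 had 6.42, 4.18 and 2.28 and Fam241b 3.14, 1.61 and 2.42. The value of each of these 4 genes in replicate 3 was above the column's median of 1.80, and the table holds no value under 1.00. Genes dim in replicate 3 may thus be missing from it, so these values do not test the 12 genes on a further array. The median also rests mostly on 10-spot probes, which were 789 of the 932. Among these were probes of Mt2A, Mtf1 and Mbd2, genes looked up by name and not listed for control. The authors' table gives a single spot of each.

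Of the 12 genes lower in Mn, 2 were listed for control in the authors' deposited table and not for Mn. Ptgir had 3.75, 4.55 and 1.86 in control replicates 1 to 3 and Psmd3 had 2.10, 5.32 and 8.15. Only 0.493% of all 1-spot gene probes were listed for Mn and 0.362% for control, but bright spots on these same arrays both named the genes and filled the table's first columns, so the listing is no independent evidence.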

How the data were processed

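Agilent rat gene expression slides carried genomic DNA of N27 cells. The authors deposited 1 scanner output per array, whose spot and local background values are intensity values on a linear scale, per the file headers. The outputs also give the percent of saturated pixels and a signal to noise ratio for each spot, per the file headers. Spot coordinates are in units not stated. The ScanArray software, version not given in the sources used here, made these values, per the labels. The value table the authors deposited gives a signal to noise ratio for a single spot of each listed probe. Within 0.006, its columns matched the scanner outputs of the same label at nearly all values, except for Mn replicate 3. That column matched no output at more than 4.61% of its values.

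The Cy3 spot median was corrected with normexp (offset 50) on the background median, set to log2, quantile normalized over gene spots and averaged per probe. The deposited values were not on a log2 scale. A mean for each group was fitted with limma 3.58.1 (R 4.3.3). Probes above background by over 2 SDs on at least 2 of 5 arrays were tested, at an adjusted p of 0.05. Blank spots took values by interpolation in the same normalization. The fit was tested on simulated data. Symbols came from RefSeq accessions, with 18430 probes carrying 1 symbol. Genes named were the 12 of smallest p in each direction among tested probes with 1 symbol, 29 genes chosen by name, and list members above background on both Mn or at least 2 control arrays. One gene chosen by name is not reported here. The comparison, members and lists were chosen with earlier results of these data known. Group tests of whole arrays were exact permutation tests (scipy 1.17.1). Arrays have no read depth, and their number limits the precision. Alternatives covered background correction, normalization, filter, blocks, arrays left out, the shared output in either or both groups, the MPP+ arrays and the authors' table. Python 3.11.15, numpy 2.4.6, pandas 2.3.3 and matplotlib 3.10.9 made other tables and plots.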

Additional observations from a re-analysis of the deposited data

How the results depend on the processing

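The count of genes passing limma's test stayed at 0 under all 24 distinct alternatives, with a smallest adjusted p between 0.0506 and 0.998. Labels number the replicates, but 2 pairs of Mn and control arrays cannot show that the numbers pair them. With the replicate number as a block, 0 probes passed and 31 had an unadjusted p under 0.05, against 22 without it. Place on the slide could not be a block, as each place held 1 group. Whole-array differences were too small to keep a sign. The difference in array level was 0.00775, and turned to -0.0116 without the output deposited under both labels, -0.027 with it counted as Mn, -0.00771 with it in both groups, -0.0218 with no background and -0.00337 with control replicates 2 and 3 as 1 sample, and ran from -0.0304 to 0.0459 with each array left out. The difference in the share of gene spots above background, 0.835 points, turned to -0.675 with the shared output counted as Mn and ran from 0.096 to 1.45 with each array left out. The ratio of gene to blank spread was 1.18, from 1.06 to 1.32 with each array left out, and 0.37 for probes with 10 spots, which average more spots than a blank. Of 656 values of the 32 tested genes that were named, 649 kept their direction and 0 passed. The 7 that turned were Uqcc3 at 0.69 with the shared output counted as Mn, Vom2r78 at 0.23 with no background correction, and, with single arrays left out, Or10k2 (-1.73 to 0.69), Gabrd (-0.87 to 0.15) and Vom2r78 (-0.91 to 0.56). Of 770 values of the 35 probes looked up by name, 731 moved by less than the spread between replicates. The number of gene lists with a median above 0 was 9, and 8, 10 and 12 under the alternatives.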
